A study of Homo sapiens with 6 samples.

Results

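Bone morphogenetic protein (BMP) signalling was followed through 9 genes in mitotic ERRAS cells, that is the ligand genes BMP2, BMP4 and BMP6, the secreted antagonist GREM1, the inhibitory SMAD6 and the 4 ID genes, ID1 to ID4. They were taken by gene symbol, with the row of highest mean kept where a symbol repeats, and are 9 of the 63129 genes listed. Expression was given as FPKM, a fragment count corrected for the length of the transcript and the size of the library, in 6 libraries. ERRAS cells are cells of the human fetal lung fibroblast line IMR90 that stably express H-RasV12 fused to an estrogen receptor domain, so that tamoxifen activates the oncogene. In 3 libraries the cells were induced for 4 days with tamoxifen, at 100 nM as the labels give it (Ras-induced mitotic cells), and in 3 they were left uninduced (control mitotic cells). The study's methods name the active metabolite of the drug and state another dose. Cells of both groups carried the ER:RAS construct, were grown with G418 at a low oxygen level, were arrested in mitosis with 1 µM of the Eg5 inhibitor DME and were collected as detached cells. No cells without the construct were given tamoxifen among these libraries, so the effects of the drug and of Ras cannot be told apart here. Nothing in the labels says whether the libraries came from separate cultures, whereas the study's description of the experiment states 3 independent repeats. The library columns name a group and a number from 1 to 3. Neither the labels nor the columns say that libraries of the same number belong together.

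BMP ligands are secreted dimers that bind type I and type II serine/threonine kinase receptors, which phosphorylate SMAD1, SMAD5 and SMAD9. These join SMAD4 and bind GC-rich and GTCT-containing sites in target genes, of which the ID genes are the best known. ID proteins have a helix-loop-helix domain without the basic part that contacts DNA, so they bind E proteins such as TCF3, TCF4 and TCF12 and keep them from DNA. SMAD6 is itself a BMP target that blocks the receptor-activated SMADs, and GREM1 sequesters BMP2 and BMP4 outside the cell. In fibroblasts ID genes are known for supporting proliferation and for holding back the CDK inhibitor p16.

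The sequences below are shown because they hold letters of that kind near ID genes. The 2000 bases before the annotated start of each gene were searched on both strands for 2 composite forms of the BMP-responsive element, GGCGNC or GACGNC followed by GTCT after 5 further bases, and for GGCGCC, the palindromic SMAD1 core, which can overlap the first. A composite form was found before ID1, ID2 and ID3 and before none of the other 6 genes. Among the 11052 protein-coding genes searched (those tested, with the 9 members), 1.26% held at least 1 of the composite forms in the same span and 47.6% held GGCGCC. The forms were chosen as elements of BMP targets, of which the ID genes are the best known, so these shares are no test of enrichment. Each sequence is read from GRCh37, the build that hg19 names, 5′ to 3′ on the strand of the gene, with the motifs in capitals.
ID1: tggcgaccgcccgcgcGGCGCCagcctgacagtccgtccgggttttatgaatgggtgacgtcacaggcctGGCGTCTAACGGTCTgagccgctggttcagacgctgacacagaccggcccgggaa
ID2: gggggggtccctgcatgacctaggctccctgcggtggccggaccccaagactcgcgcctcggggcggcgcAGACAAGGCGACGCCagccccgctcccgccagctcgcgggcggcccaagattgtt
ID3: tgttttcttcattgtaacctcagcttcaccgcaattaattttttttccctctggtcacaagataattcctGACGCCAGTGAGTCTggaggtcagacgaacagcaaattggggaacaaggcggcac
The ID1 stretch (chr20:30192111-30192235, plus strand) held the composite form at position -905 from the gene's start and GGCGCC upstream of it. The ID2 stretch (chr2:8817153-8817277, plus strand) held it on the opposite strand, at position -1752 from the start of the gene but -4963 from that of its canonical transcript. The ID3 stretch (chr1:23886444-23886568, minus strand) held it at position -506. GGCGCC was also found before ID4 (1 match), SMAD6 (4 matches) and GREM1 (3 matches), and not before BMP2, BMP4 or BMP6. A match is a run of letters, and no binding was measured here.

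Of the 63129 genes, the 13993 that averaged 1 FPKM or more entered a limma fit of log2(FPKM + 1). A gene is called altered here if its p, adjusted by Benjamini-Hochberg over all of them, was 0.05 or less. By that rule 16.7% of the genes fitted were altered after Ras induction, with 11% higher and 5.67% lower. Over all tested genes, log2 fold changes had a median of 0.10. The deposited values called 1543 genes higher and 793 lower, and quantile-normalized values 1044 higher and 1109 lower. No read totals were used, and the steps between low FPKM values put the depth of the libraries between 0.849 and 1.17 times that of the first control library. DUSP6, a phosphatase induced by ERK, measured 1.92 to 3.31 FPKM in control and 21.2 to 39.8 FPKM in Ras-induced libraries (adjusted p = 0.00198 from limma). HRAS, whose reads can come from the construct, went from 1164 ± 20.3 to 1586 ± 226.5 FPKM (SD, n = 3, adjusted p = 0.0431 from limma), a call that was lost under 10 of 13 alternatives. Of the fibroblast markers all 10 were expressed, with 4 of them lower after induction and a summed level of 5605 to 6600 FPKM in control and 4030 to 5389 FPKM in Ras-induced libraries. The 8 mitotic markers summed to 1583 to 1645 and 1299 to 1439 FPKM, with 4 of them lower. The leukocyte list summed to at most 0.288 FPKM. In the endothelial list PECAM1 was listed at 0 in every library, CDH5, VWF and KDR had means of at most 0.0688 FPKM, and TEK measured 14.4 to 16.4 FPKM in control and 4.72 to 5.29 FPKM in Ras-induced libraries. The epithelial list summed to 22.7 to 36.2 and 21.8 to 25.5 FPKM, mostly KRT5 and KRT14, with CDH1 at a mean of 0.129 FPKM. The part of these markers in the results below was not tested.

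Among the members, BMP2 rose and GREM1 fell after Ras induction, and the other 5 tested members did not pass the test. BMP6 and ID4 stayed under the filter of 1 FPKM. The 2 altered members of 7 tested stand beside the 16.7% of all tested genes. The groups did not overlap for 3 of the 7, BMP2, BMP4 and GREM1, and for 39.9% of all tested genes. BMP4 passed the filter only through the Ras-induced libraries, so these counts describe the 7 and support nothing about the members. They had a median log2 fold change of 0.30, with 4 positive and 3 negative. FPKM is corrected for transcript length, so the levels can be set beside each other. GREM1 was the most abundant in each library, followed by ID3 in each of the 6, with ID1 and ID2 overlapping each other, while the ligands and SMAD6 lay far below.

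**Figure D1:**
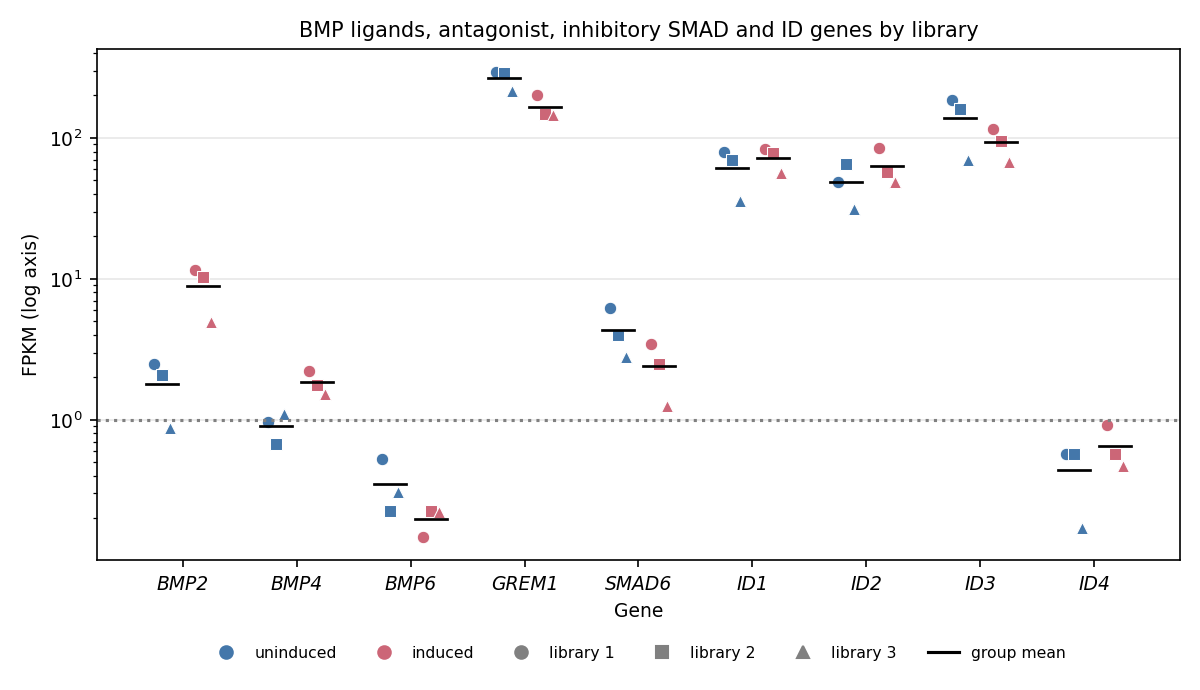
FPKM on a log axis for each of the 9 genes, with 1 point per library (circle, square and triangle for libraries 1, 2 and 3 of a group), control libraries in blue, Ras-induced libraries in red, the group mean as a black bar and the 1 FPKM filter as a dotted line. The Ras-induced points of BMP2 lie above its control points and those of GREM1 lie below, while the points of each ID gene overlap between the groups.

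BMP2 (ENSG00000125845, chromosome 20 of GRCh37 from 6748333 to 6760893, plus strand), a ligand that drives bone formation, measured 2.48, 2.08 and 0.869 FPKM in control libraries and 11.5, 10.3 and 4.95 FPKM in Ras-induced libraries. The lowest Ras-induced library stood above the highest control library. The mean rose 4.93-fold, from 1.81 ± 0.838 to 8.92 ± 3.48 FPKM (SD, n = 3). On the log2 scale limma put the difference at 1.80 with a standard error of 0.35 (adjusted p = 0.0193). In bulk RNA, here and below, a change in cell numbers of a type cannot be told from a change in RNA per cell. The call was kept without the third Ras-induced library and lost when any other single library was left out, with adjusted p from 0.0286 to 0.0778 and log2 fold changes from 1.53 to 2.13. It was also lost without a filter on low values (adjusted p = 0.0613 from limma).

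BMP4 (ENSG00000125378, chromosome 14 from 54416454 to 54425479, minus strand), a close relative of BMP2 that binds the same receptors, measured 0.961, 0.674 and 1.10 FPKM in control and 2.24, 1.76 and 1.52 FPKM in Ras-induced libraries. The groups did not overlap, but the log2 fold change of 0.57 (standard error 0.19) did not pass the test (adjusted p = 0.0897 from limma). Its control mean of 0.911 FPKM lay under the filter, which it passed through the Ras-induced libraries. BMP6 (ENSG00000153162, chromosome 6 from 7726332 to 7881961, plus strand), a ligand known for its part in iron balance, measured 0.526, 0.226 and 0.306 FPKM in control and 0.148, 0.225 and 0.221 FPKM in Ras-induced libraries. The groups did not overlap, but their nearest values, 0.226 and 0.225 FPKM, almost met. The exact permutation test gave p = 0.1, the smallest that 3 libraries against 3 allow (two-sided, on log2(FPKM + 1)). None of the 11 other BMP family ligands listed, among them BMP7 and GDF5, reached a mean of 1 FPKM, and the highest mean among them was 0.275 FPKM.

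GREM1 (ENSG00000166923, chromosome 15 from 33010205 to 33037307, plus strand), a cystine-knot antagonist secreted by fibroblasts, measured 291, 290 and 215 FPKM in control libraries and 203, 148 and 146 FPKM in Ras-induced libraries. The highest Ras-induced value lay just under the lowest control value. The mean fell 1.60-fold, from 265 ± 43.7 to 166 ± 32.3 FPKM (SD, n = 3). On the log2 scale limma put the difference at -0.68 with a standard error of 0.17 (adjusted p = 0.0447). That call was kept without the third control library or the first Ras-induced library and lost when any of the other 4 libraries was left out, with adjusted p from 0.0398 to 0.15. It was lost as well without the mean-variance trend (adjusted p = 0.0619 from limma) and without a filter on low values (adjusted p = 0.113 from limma).

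Set against each other within a library, the antagonist exceeded the ligands in both groups and by less after induction. GREM1 was 73.4, 97.1 and 94.5 times the summed FPKM of BMP2, BMP4 and BMP6 in the control libraries. It was 14.7, 12.0 and 21.8 times that sum in the Ras-induced libraries. The summed ligand level was 3.07 ± 0.849 FPKM in control and 11.0 ± 3.77 FPKM in Ras-induced cells (SD, n = 3), of which BMP2 made up 38.2% to 69.8% and 73.9% to 83.9%. These ratios are not moved by a scale factor common to a library, and they were formed from members already described, so no test is attached.

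The other secreted antagonists and modulators of the pathway were taken from a list of 15, of which 7 were tested. None rose and 5 fell, so that with GREM1 6 of 8 were lower, where 5.67% of all tested genes were. That count was 2 without the second control library (FSTL3 and CRIM1), and 3 to 5 with any other single library left out. It was 3 of 14 with no filter on low values, where GREM1, TWSG1 and BMPER lost their calls, and 2 of 8 without the third library of both groups. FSTL3, a follistatin-like protein that binds activins and some BMPs, fell 5.15-fold, from 33.4 ± 8.69 to 6.48 ± 1.26 FPKM (SD, n = 3), or by -2.18 on the log2 scale with a standard error of 0.21 (adjusted p = 0.00279 from limma). FST, or follistatin, had a log2 fold change of -1.13 and CRIM1, a membrane protein that tethers BMPs, one of -1.20. BMPER and TWSG1, extracellular modulators of BMP availability, had log2 fold changes of -0.91 and -0.67. The median log2 fold change of the 8 was -0.79. NBL1 and NOG did not pass, with log2 fold changes of 0.43 and -0.18, although NBL1 had an unadjusted p under 0.05. NOG, the antagonist noggin, was near 2 FPKM in both groups (2.22 ± 0.798 and 1.82 ± 0.622, SD, n = 3), far below GREM1.

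**Figure D2:**
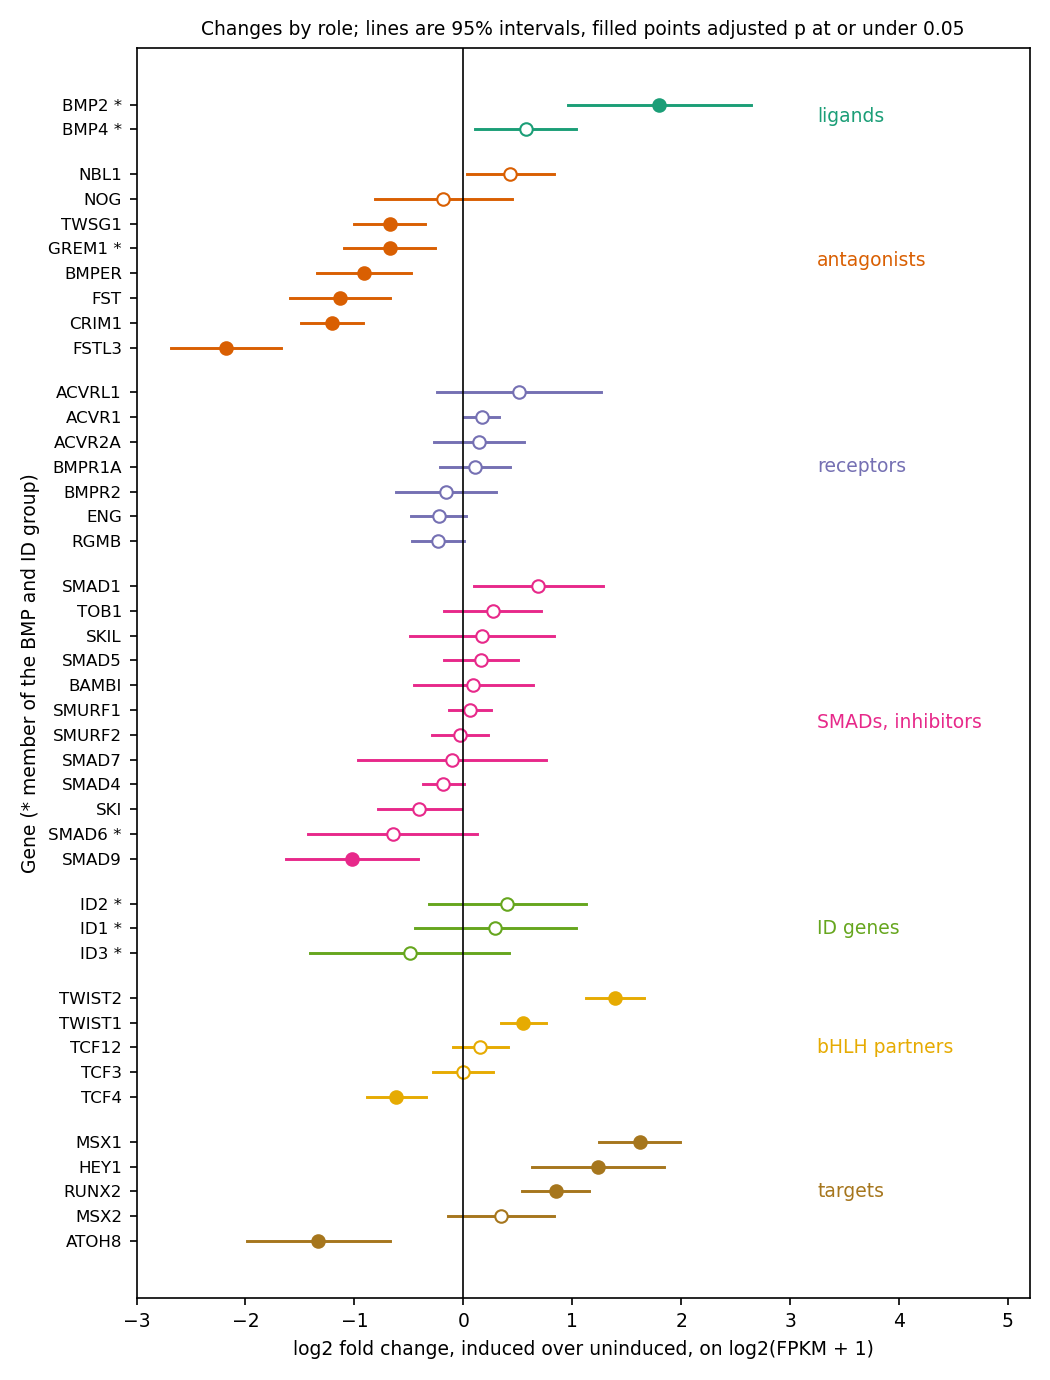
Log2 fold change of Ras-induced over control cells for the 7 tested members (asterisks) and the 35 other tested genes of the pathway, ordered by role, with 95% intervals from limma as lines and filled points for genes with an adjusted p at or under 0.05. Filled points among the antagonists all lie left of 0, no receptor is filled, and the intervals of ID1, ID2 and ID3 cross 0.

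No receptor passed the test. Of the 11 receptors and co-receptors listed 7 were tested with limma and 0 were altered, while 1 of them, ACVR1, had an unadjusted p under 0.05 (adjusted p = 0.132). Since 16.7% of all tested genes were altered, 0 of 7 is near the background and does not set the receptors apart. Without the second Ras-induced library 1 of the 7, the co-receptor ENG, was lower. With the replicate block 1 of the 7, the receptor ACVRL1, was higher (7.84 ± 2.97 and 11.5 ± 3.45 FPKM, SD, n = 3). The type I receptors BMPR1A and ACVR1 had log2 fold changes of 0.11 and 0.17, and the type II receptor BMPR2 one of -0.16. Their means in control cells were 24.0 ± 3.32, 33.6 ± 0.544 and 21.5 ± 1.32 FPKM (SD, n = 3).

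SMAD6 (ENSG00000137834, chromosome 15 from 66994574 to 67075187, plus strand) measured 6.16, 3.98 and 2.78 FPKM in control and 3.46, 2.48 and 1.24 FPKM in Ras-induced libraries. The groups overlapped, and the log2 fold change of -0.65 (standard error 0.33, 95% interval -1.43 to 0.13) did not pass the test (adjusted p = 0.215 from limma). SMAD6 passed with the replicate block (adjusted p = 0.0414 from limma). Its log2 fold change ranged from -0.88 to -0.38 with single libraries left out, and it was nearest to 0 without the third Ras-induced library (-0.38) or the first control library (-0.41). Of the 11 other SMADs and intracellular inhibitors, all tested, 1 was altered, beside 16.7% of all tested genes. This was SMAD9, a receptor-activated SMAD. It went from 5.23 ± 1.57 to 2.05 ± 0.734 FPKM (SD, n = 3), or by -1.02 on the log2 scale with a standard error of 0.25 (adjusted p = 0.0398 from limma). The call was kept without the third control library, and it was lost when any other single library was left out (adjusted p up to 0.134) and without a filter on low values (0.107). SMAD1 and SMAD5, which carry the same signal, had log2 fold changes of 0.69 and 0.16 and did not pass (adjusted p = 0.104 and 0.46 from limma), although SMAD1 passed without the second Ras-induced library (0.97, adjusted p = 0.0233). SMAD4, the shared partner, had -0.19 and passed only after the libraries were rescaled (adjusted p = 0.0419 from limma after quantile normalization). SMAD7, the inhibitor shared with TGF-beta signalling, was near 1 FPKM in both groups and had a log2 fold change of -0.10.

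In the limma fit without a replicate block, 0 of the 3 tested ID genes were altered and 0 had an unadjusted p under 0.05. The groups overlapped for each of the 3. With 16.7% of all tested genes altered and 39.9% without overlap, 0 of 3 is near the background. ID1 (ENSG00000125968, chromosome 20 from 30193086 to 30194318, plus strand) measured 79.3, 69.1 and 35.7 FPKM in control and 83.8, 77.6 and 56.3 FPKM in Ras-induced libraries. Its control library 3 was the lowest of the 6, and the groups overlapped. The log2 fold change was 0.30 (standard error 0.31, 95% interval -0.44 to 1.03, adjusted p = 0.538 from limma), and it was -0.05 when that library was left out. ID2 (ENSG00000115738, chromosome 2 from 8818975 to 8824591, plus strand) measured 49.0, 65.6 and 31.3 FPKM and 84.4, 57.5 and 48.9 FPKM. The groups again overlapped, and limma put the log2 difference at 0.40 (standard error 0.30, 95% interval -0.32 to 1.12, adjusted p = 0.397 from limma). It was 0.13 without control library 3, 0.18 without Ras-induced library 1 and 0.65 without control library 2. ID3 (ENSG00000117318, chromosome 1 from 23884417 to 23885992, minus strand) measured 184.9, 161.1 and 70.1 FPKM in control and 115.8, 94.7 and 67.7 FPKM in Ras-induced libraries. Control libraries 1 and 2 lay above every Ras-induced library and control library 3 among them. The log2 fold change was -0.49 (standard error 0.38, 95% interval -1.41 to 0.42, adjusted p = 0.41 from limma). It was -0.92 without control library 3 (adjusted p = 0.0681), -0.23 without control library 1 and -0.29 without Ras-induced library 3.

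ID4 (ENSG00000172201, chromosome 6 from 19837601 to 19842428, plus strand), better known from brain and mammary epithelium, was under 1 FPKM in every library. It measured 0.573, 0.572 and 0.171 FPKM in control and 0.912, 0.574 and 0.471 FPKM in Ras-induced libraries, and the exact permutation test gave p = 0.4 (two-sided, n = 3 against 3).

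While the summed level of the ID genes overlapped between the groups, its makeup did not. The 4 genes summed to 314, 296 and 137 FPKM in control and 285, 230 and 173 FPKM in Ras-induced libraries. ID3 made up 58.9%, 54.4% and 51.1% of that sum in control and 40.6%, 41.1% and 39.0% in Ras-induced libraries. ID1 made up 24.9% ± 1.39 in control and 31.9% ± 2.21 in Ras-induced cells, and ID2 20.2% ± 3.96 and 27.6% ± 2.40 (SD, n = 3). The control library with the lowest summed level thus had an ID3 share above that of every Ras-induced library. Per transcript length, the ratio of ID2 to ID3 was 0.373 ± 0.0954 in control and 0.686 ± 0.0689 in Ras-induced cells (SD, n = 3), and that of ID1 to ID3 was 0.456 ± 0.0465 and 0.792 ± 0.0594. The ratio of ID1 to ID2 overlapped between the groups, at 1.27 ± 0.303 and 1.16 ± 0.179. The shares sum to a whole and are not independent of each other, and no test is attached to them. Of all tested genes, taken singly, 39.9% did not overlap between the groups. How often shares or ratios of other gene sets separate was not measured, so the lack of overlap here cannot be set against a background.

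**Figure D3:**
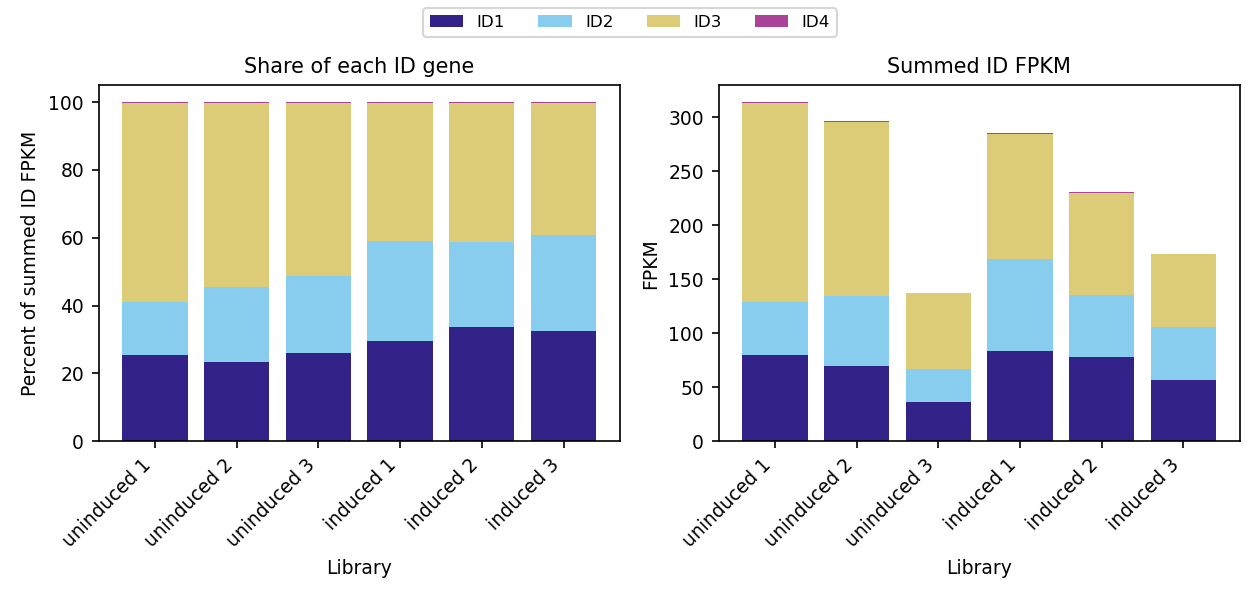
Stacked bars for each of the 6 libraries, with the share of each ID gene in the summed ID FPKM (percent, left) and the sum itself (FPKM, right). The share of ID3 is between 51.1% and 58.9% in control and between 39.0% and 41.1% in Ras-induced libraries, whereas the sums of the groups overlap.

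The libraries numbered 3 were the lowest of their group for most members. Among the 7 tested members the third library was the lowest control library for 6, against 46.2% of all tested genes, and the lowest Ras-induced library for 7, against 30.8%. It was the lowest in both groups for 6 members, all but BMP4, against 18.5% of all tested genes and 12 of the 35 other tested pathway genes. Taken as control library 3 minus the mean of control libraries 1 and 2 on the log2(FPKM + 1) scale, the differences were -1.29 for ID3 and -1.03 for ID1. In Ras-induced library 3 the differences were -0.62 and -0.51. BMP2 had differences of -0.81 and -0.999, and SMAD6 of -0.66 and -0.81. The medians over all tested genes were -0.06 in control and -0.01 in Ras-induced libraries. Among the other pathway genes SMAD7 (-0.70 and -0.90) and ACVRL1 (-0.86 and -0.73) had the same pattern, and were named after their values were seen.

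**Figure D4:**
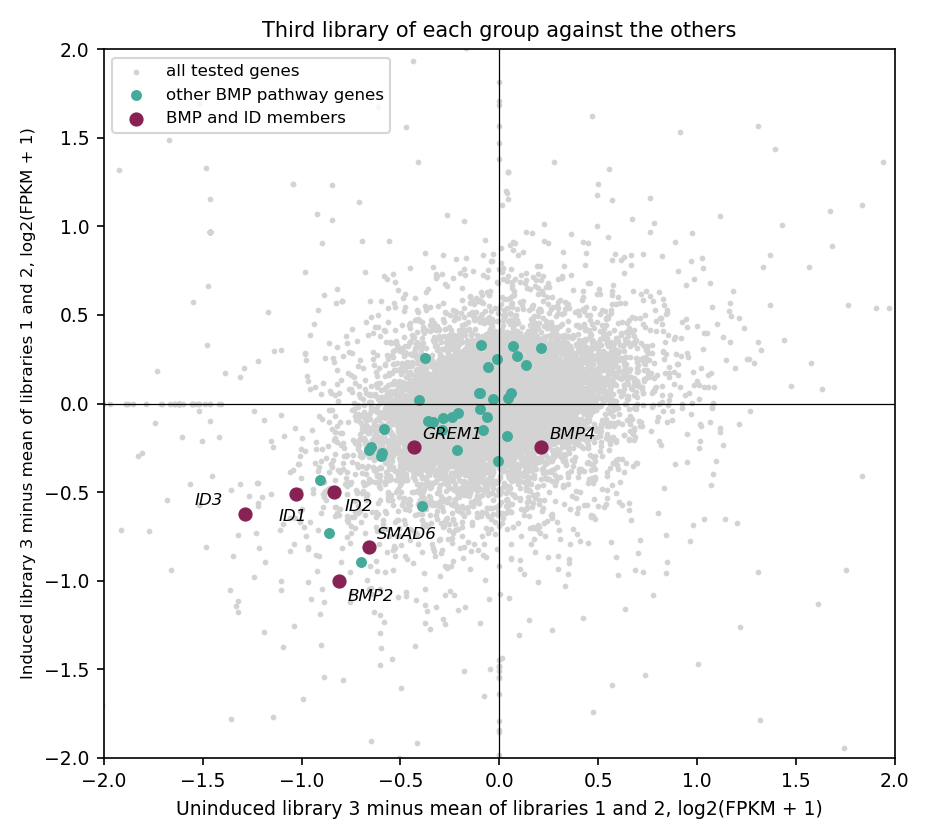
Each point is a gene, with the difference of control library 3 from the mean of control libraries 1 and 2 on the x axis and the same for the Ras-induced libraries on the y axis, both on log2(FPKM + 1). Of the 13993 tested genes (grey) 398 lie outside the range shown. Of the 7 tested members (purple) 6 lie left of and under 0 on both axes, and BMP4 does so only on the y axis.

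The spread behind these values was large for genes of this abundance. The SD between libraries of a group, on log2(FPKM + 1), was 0.48 for ID1, 0.47 for ID2 and 0.60 for ID3. Among tested genes whose mean was within 0.5 (log2) of theirs, the median SD was 0.13, and 96.1%, 95.7% and 97.0% of those genes had a smaller SD than ID1, ID2 and ID3. For BMP2 the SD was 0.53 against a median of 0.20, and for GREM1 0.26 against 0.13. BMP4 was the exception, with an SD of 0.17 against a median of 0.23. Without the third library of both groups, an alternative added after the data were seen, BMP2 stayed altered (log2 fold change 1.86, adjusted p = 0.0422 from limma), GREM1 did not pass (-0.74, adjusted p = 0.113) and ID3 had a log2 fold change of -0.72 (adjusted p = 0.088).

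The E proteins and other helix-loop-helix partners of the ID proteins included genes altered in each direction, with 2 of 5 higher and 1 lower, beside 11% and 5.67% of all tested genes. TWIST2 and TWIST1, mesenchymal transcription factors that act with E proteins, had log2 fold changes of 1.39 and 0.55 (adjusted p = 0.00197 and 0.0103 from limma). TWIST2 went from 6.72 ± 0.703 to 19.3 ± 1.78 FPKM (SD, n = 3). TCF4 had a log2 fold change of -0.61 (adjusted p = 0.0169 from limma), from 39.4 ± 5.45 to 25.2 ± 1.11 FPKM (SD, n = 3). TCF3 measured 116 ± 14.7 and 116 ± 9.41 FPKM (SD, n = 3), and TCF12 had a log2 fold change of 0.16 (adjusted p = 0.346 from limma). The TCF4 call was kept without control library 3 and lost with any other single library left out (adjusted p up to 0.0742), and that of TWIST1 was lost without control library 2 (0.055).

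Of 8 other genes known as BMP targets 5 were tested. MSX1, HEY1 and MSX2 had control means under 1 FPKM and passed the filter through the Ras-induced libraries, so a count of rises over the tested targets supports nothing and each gene is given by its own values. MSX1, a homeobox factor, rose 5.34-fold, from 0.916 ± 0.186 to 4.89 ± 0.615 FPKM (SD, n = 3), which limma put at 1.62 on the log2 scale with a standard error of 0.16 (adjusted p = 0.00279). HEY1, a repressor that Notch also induces, and RUNX2, the osteoblast factor, had log2 fold changes of 1.23 and 0.85. ATOH8 went the other way, from 15.6, 14.4 and 7.53 FPKM to 4.58, 4.82 and 3.22 FPKM, which limma put at -1.33 on the log2 scale with a standard error of 0.27 (adjusted p = 0.0231). MSX2 did not pass (0.35, adjusted p = 0.282 from limma). Over the 61 other pathway genes listed, 35 were tested, 5 rose and 8 fell, beside 11% and 5.67% of all tested genes, with a median log2 fold change of 0.06. Of the 5 that rose, MSX1 and HEY1 are among those that passed the filter as described above. FSTL3, CRIM1, MSX1 and TWIST2 kept their calls with each library left out and under each other pseudocount, filter, scaling, trend or block setting in which they were tested, and the other 9 lost theirs when at least 1 library was left out.

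By the likeness of their profiles over the 6 libraries, measured as the root-mean-square difference of log2(FPKM + 1) centred on each gene, the nearest tested genes to BMP2 were CCDC102B (0.21), HES1 (0.26) and HIST1H2BD (0.27). They had log2 fold changes of 2.01, 1.51 and 1.74. The nearest to GREM1 were TMEM123 (0.08), LRRC8D (0.09) and CHSY3 (0.09), with -0.59, -0.73 and -0.64. CHSY3 did not pass the test (adjusted p = 0.0907 from limma).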

How the data were processed

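Poly(A) RNA of cells arrested in mitosis, in 3 uninduced and 3 induced libraries, was sequenced by the authors as paired-end reads, trimmed (Trim Galore 0.3.0, per the labels), aligned to hg19 with TopHat2 and an Ensembl reference, and quantified with Cufflinks. The authors deposited FPKM per gene and library in 1 table. Its 18 unnamed columns hold extra values of 120 genes, which were left out, and 1 inner header line was dropped. A deposited cuffdiff table holds per-group FPKM and the authors' fold changes, p-values and q-values and was not used. FPKM are not counts. Genes averaging 1 FPKM or more (13993) were therefore fitted as log2(FPKM + 1) in R 4.3.3 using limma 3.58.1 with lmFit and a trended eBayes, two-sided, and p-values were adjusted by Benjamini-Hochberg over all of them. This scale understates changes of low genes. Members under the filter had exact permutation tests in scipy 1.17.1.

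The members and lists were chosen with earlier results of these data known. Named genes were the members, every altered gene of the pathway lists, 10 pathway genes fixed whatever their call, the 3 nearest profiles of each altered member, and HRAS and DUSP6. NBL1, NOG, ACVRL1, ENG, MSX2, BMP7, GDF5 and the named markers were named after their values were seen. 1 gene of the pathway lists is not reported here and enters no list count. Columns name groups, not samples. Loci are from GENCODE 44 on GRCh37. Alternatives were a pseudocount of 0.1, no filter or 5 FPKM, quantile and upper-quartile scaling, no trend, a replicate block, each library left out and a log2 fold change of at least 1.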

Additional observations from a re-analysis of the deposited data

How the results depend on the processing

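Directions of the 15 altered members and pathway genes did not reverse under any alternative, but 11 lost their call when at least 1 library was left out. Fits with fewer libraries also called fewer of all tested genes, and the reason for the lost calls was not tested. Leaving out 1 library gave 0 to 1 altered members, 4 to 11 altered pathway genes and 860 to 1872 altered genes in all, against 2, 13 and 2336. Leaving out the third library of both groups gave 1, 6 and 400. With no filter on low values 0 of 9 members by limma (3 at an unadjusted p under 0.05), 8 pathway genes and 1518 of 29362 genes were altered. Calls that also moved by 1 or more on the log2 scale numbered 1, 8 and 548. Single libraries turned the sign of unaltered genes only, with ranges of -0.05 to 0.52 for ID1, -0.35 to 0.04 for BMPR2, -0.39 to 0.19 for SMAD7 and -0.10 to 0.08 for TCF3.

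Within each group the libraries were centred, and those sharing a number then correlated across genes at -0.003, 0.043 and 0.048. Not each library correlated best with its own number, so the numbers were not taken to pair the libraries. These correlations run over all tested genes, while the third library was the lowest in both groups for 6 of the 7 tested members. Whether the numbers pair the libraries for these members was not tested. With the replicate block 3 members (BMP2, GREM1 and SMAD6, the last at an adjusted p of 0.0414 from limma), 14 pathway genes (the receptor ACVRL1 among them) and 2310 genes were altered. Members at an unadjusted p under 0.05 numbered 5 of 7 with the block and 3 of 7 without it. With the block ID1, ID2 and ID3 had adjusted p of 0.183, 0.229 and 0.0988 from limma. BMP4 passed only without the trend (adjusted p = 0.0444 from limma). Absolute depth is unknown, and 3 libraries against 3 limit the precision of each value.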
